A study of Mus musculus with 6 samples.

Results

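The nuclear genes for mitochondrial respiratory complexes II, III and IV and for ATP synthase were examined in mouse blood platelets. They were taken by gene symbol, as every row named Sdha to Sdhd, or beginning with Uqcr, with Cox followed by a digit from 4 to 8, or with Atp5. This gave 47 of the 24346 symbols in the tables: 4 of complex II, 8 of complex III, 18 of complex IV and 17 of ATP synthase. RNA had been sequenced from thrombocytes, as the labels call them, of wild-type mice (3 libraries, titled WT) and of mice homozygous for a knock-in of R734C, an amino acid change in integrin β3 (3 libraries, titled Homo). Integrin β3 is the partner of αIIb in the platelet fibrinogen receptor, and the title of the study ties the change to macrothrombocytopenia, that is, few and large platelets. The labels do not state strain, age, how many animals stand behind a library or how the platelets were purified. Nothing in the labels says that the 3 libraries of a genotype came from separate animals, so p-values measure the spread between these libraries, which may be technical. The question addressed by the design is how the amino acid change alters platelet gene expression. All values are FPKM, fragments per kilobase of transcript scaled to sequencing depth, and are listed in the order of libraries 1, 2 and 3 of each genotype, first WT and then Homo.

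Complex II, succinate dehydrogenase, passes electrons from succinate to ubiquinone. Complex III passes them on to cytochrome c and complex IV, cytochrome c oxidase, from there to oxygen, and both complexes III and IV pump protons across the inner mitochondrial membrane. ATP synthase lets protons flow back through a ring of c subunits in the membrane (the Fo part), which turns a central stalk inside a catalytic head (the F1 part). Platelets have no nucleus but carry functioning mitochondria, and they hold mRNA left from their megakaryocytes. Every complex II subunit is encoded in the nucleus, while cytochrome b of complex III, the catalytic core of complex IV and part of Fo are encoded in mitochondrial DNA. A list of mitochondrially encoded genes matched 0 of the symbols given, so those genes were not analysed here.

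The 6 libraries had relative depths of 1 to 1.05 (WT) and 0.882 to 1.05 (Homo), with WT library 1 set to 1, judged from the commonest ratio of low values. Platelet identity was checked on 10 marker genes, which summed to 52744 to 54968 FPKM in WT and 49054 to 54500 in Homo. Within that list the genotypes did not overlap in 5 genes, 2 upward and 3 downward, and 1 passed the test used below: Tubb1, the platelet β-tubulin, at 6574 ± 414 FPKM in WT and 3710 ± 174 in Homo (SD, n = 3 each; log2 fold change -0.82, SE 0.083, limma adjusted p = 0.00759). Haemoglobin mRNA took 5.71 to 12.8% of the total FPKM in WT and 3.202 to 20.4% in Homo libraries, and was highest in library 1 of each genotype. All 11 erythroid markers in the tables were above 0, with sums of 37731 to 93421 FPKM in WT and 24685 to 179944 in Homo. Sums for neutrophil markers (7 of 10 above 0; Camp, Elane and Mpo at 0) were 0.208 to 2.22 FPKM in WT and 0.2499 to 1.902 in Homo, the order kept for the next lists. Those for T and NK cell markers (3 of 8 above 0; Cd3d, Cd3e, Cd4, Klrb1c and Ncr1 at 0) were 2.67 to 4.42 and 4.95 to 8.83 FPKM, almost all from Nkg7, and for B cell markers (3 of 5 above 0; Ms4a1 and Pax5 at 0) 0 to 0.185 and 0.196 to 0.693 FPKM, so these sums did not overlap between the genotypes. The 8 monocyte and macrophage markers, all above 0, summed to 7036 to 8244 and 7206 to 9129 FPKM, of which all but a few FPKM was Lyz2; no other marker of that list exceeded 3.21 FPKM. The part of these cells in the results below was not tested. In such bulk RNA, fewer cells of a type and less RNA per cell cannot be told apart.

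Many respiratory chain genes are known targets of nuclear respiratory factor 1 (NRF1), of GA-binding protein (GABP) and of YY1, so the promoters were searched for short core motifs of these factors. The windows ran from 250 bases before to 50 bases after each gene's start (RefSeq, GRCm38.p6), and 37 of the 47 genes had 41 windows between them. On either strand, the NRF1 motif (GCGCA, any base, then GCGC) was in 10 of these windows, 24.4%, against 4.603% of all 32851 promoter windows. CCGGAAG (GABP) was in 12, 29.3%, against 8.86%, and AAGATGGC (YY1) in 5, 12.2%, against 2.75%. The YY1 windows came from 4 genes, because overlapping windows of Atp5sl held the same match. Matches to different motifs overlapped in 0 cases. The stretches of 250 bases before the start are shown for 2 genes that were lower and 2 that were higher in Homo platelets, picked after their values were seen as examples of matches in both directions, with the motif letters in capitals, 5′ to 3′ on the gene's own strand. All 4 genes lie on the minus strand, and CTTCCGG is the GABP motif read from the other strand.
Sdha, lower, 3 NRF1 matches, chr13:74350241-74350490: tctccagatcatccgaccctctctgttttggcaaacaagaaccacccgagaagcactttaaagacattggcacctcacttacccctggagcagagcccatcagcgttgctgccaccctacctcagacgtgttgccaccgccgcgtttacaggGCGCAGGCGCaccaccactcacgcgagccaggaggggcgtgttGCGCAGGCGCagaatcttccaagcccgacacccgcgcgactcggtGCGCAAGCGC
Atp5e, lower, a GABP match, chr2:174464102-174464351: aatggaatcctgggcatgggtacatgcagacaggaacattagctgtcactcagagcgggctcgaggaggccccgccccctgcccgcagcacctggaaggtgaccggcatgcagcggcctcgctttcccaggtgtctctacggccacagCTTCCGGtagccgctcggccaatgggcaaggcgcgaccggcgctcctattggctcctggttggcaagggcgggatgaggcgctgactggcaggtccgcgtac
Cox6b1, higher, a GABP match, chr7:30626115-30626364: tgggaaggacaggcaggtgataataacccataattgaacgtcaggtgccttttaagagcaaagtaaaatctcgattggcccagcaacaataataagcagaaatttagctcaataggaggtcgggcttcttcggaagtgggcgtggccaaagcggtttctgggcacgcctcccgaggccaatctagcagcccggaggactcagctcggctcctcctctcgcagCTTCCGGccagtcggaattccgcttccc
Atp5l, higher, a GABP match here and another just after the start, chr9:44920743-44920992: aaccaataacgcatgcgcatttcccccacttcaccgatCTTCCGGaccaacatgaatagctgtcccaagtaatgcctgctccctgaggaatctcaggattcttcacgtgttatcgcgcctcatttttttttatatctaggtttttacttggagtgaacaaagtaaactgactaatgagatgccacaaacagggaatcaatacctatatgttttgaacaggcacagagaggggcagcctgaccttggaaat
Of the genes past the test described next that had a window, 3 of 6 that were higher and 4 of 4 that were lower held a match to any of the 3 motifs, as did 13 of 23 that did not pass. Uqcrb, which was also lower, had no window. The share of all promoter windows with any of the 3 motifs was not determined, and the difference between these groups was not tested. GABP matches stood in front of genes of both directions. NRF1 matches were in windows of Sdha, Atp5c1 and Atp5o, all lower, and in those of no higher gene. They were also in windows of genes that did not pass, such as Cox6a1 and Sdhd, and this pattern was not tested.

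Of the 47 genes, 40 had a mean of at least 1 FPKM and were tested. Cox4i2 and Cox7b2 were listed at 0 throughout, and Cox6a2, Cox8b, Cox8c, Atp5s and Atp5sl stayed below the filter. None of the 40 reached that mean through 1 genotype alone: the lowest, Cox7a1, averaged 1.05 FPKM in WT and 1.26 in Homo. The test was limma on log2(FPKM + 1) over all 4859 genes that passed the filter, with an adjusted p of 0.05 as the threshold, and fold changes are on that scale, which understates changes of low genes. Homo platelets had 6 of the 40 genes higher and 5 lower. Over all tested genes 4.36% were higher and 3.99% lower, 8.36% in all. Scaling to the total without erythroid genes and the 50 most abundant genes turned the split over all genes from 212 higher and 194 lower to 180 and 257, and left that of the 40 genes at 6 and 5. Complex IV held 5 of the 6 rises and no fall, and ATP synthase 3 of the 5 falls. Libraries of the 2 genotypes did not overlap in 21 of the 40, 13 upward and 8 downward, against 30.7% of all tested genes. The median log2 fold change was -0.32 for complex II, 0.0041 for complex III, 0.32 for complex IV and -0.082 for ATP synthase, against -0.014 over all tested genes. Complex IV genes are short, with a median transcript of 606 bases. All tested genes with a transcript of at most 800 bases had a median log2 fold change of 0.33, close to that of complex IV.

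**Figure D1:**
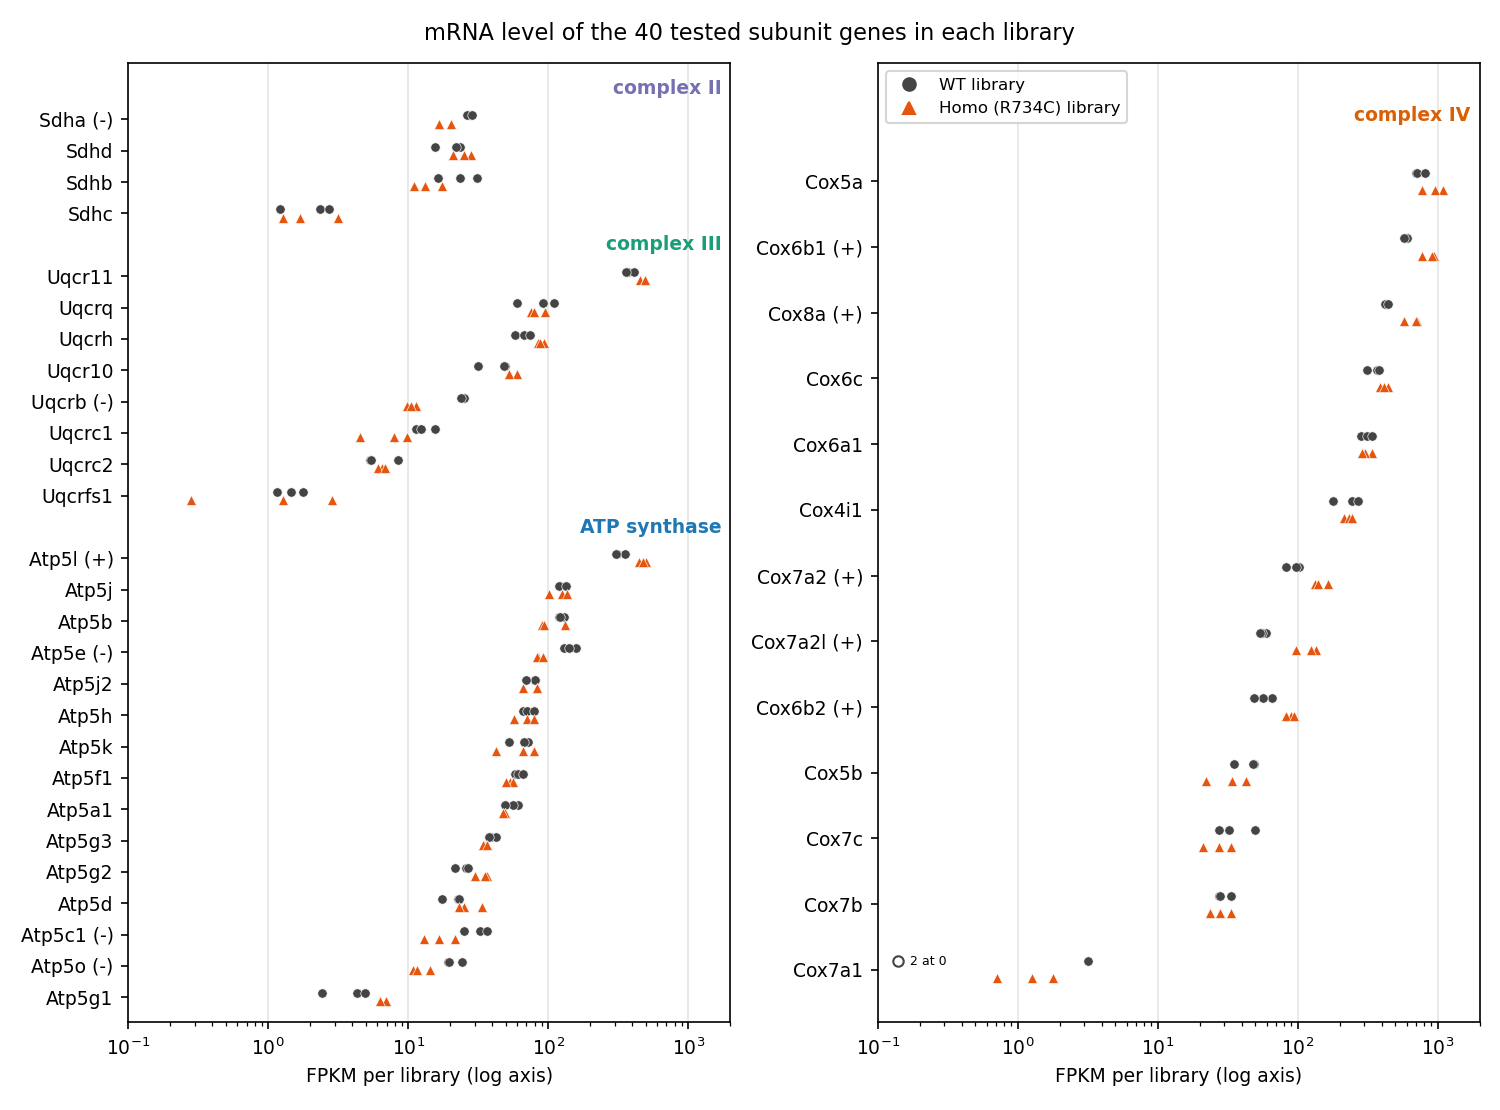
FPKM of the 40 tested genes in each library, on a log axis, ordered by mean level within each complex; grey circles are WT and orange triangles Homo libraries, an open symbol stands for libraries listed at 0, and (+) or (-) marks genes higher or lower in Homo at a limma adjusted p under 0.05. The 5 marked complex IV genes have all Homo libraries to the right of all WT ones.

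Levels differed widely within a complex even though its subunits are built in at fixed ratios. In WT they ran from 2.09 FPKM (Sdhc) to 27.5 (Sdha) in complex II and from 1.47 (Uqcrfs1) to 382 (Uqcr11) in complex III. In complex IV they ran from 1.05 (Cox7a1) to 745 (Cox5a), and in ATP synthase from 3.88 (Atp5g1) to 323 (Atp5l). Cox7a1 and Atp5g1 share their subunit with more abundant forms, so these spans also hold differences between forms. Cox7a1 was listed at 0 in WT libraries 2 and 3. Of all FPKM in a library, the 47 genes together accounted for 0.648 to 0.786% (WT) and 0.632 to 0.823% (Homo). Summed FPKM of complex IV was 2814, 2998 and 3160 in WT and 3495, 4178 and 3964 in Homo, where every library was above every WT one. Complex III also summed higher in Homo, at 699, 751 and 744 against 569.6, 663 and 640.2 FPKM. In WT 61.2% of the complex III sum was Uqcr11 alone, a gene that did not pass the test. Complex II summed lower, at 52.4, 60.3 and 62.05 against 76.8, 65.9 and 77.8. ATP synthase sums overlapped, at 1166, 1249 and 1266 against 1134, 1238 and 1185. As shares of the total FPKM, which itself was higher in Homo (758381 to 856863 against 641278 to 708432), the sums of complexes III and IV overlapped between the genotypes, while complex II stayed apart at 0.00611 to 0.00795% against 0.0103 to 0.0121%.

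Complex II had 1 call, a fall of the catalytic subunit Sdha, and none in its membrane anchors. Sdha encodes the flavoprotein that oxidises succinate (chromosome 13, 74322254 to 74350280, minus strand of GRCm38). It measured 27.6, 26.2 and 28.7 FPKM in WT and 16.6, 20.2 and 16.5 in Homo, without overlap, and fell 1.52-fold (27.5 ± 1.26 against 17.8 ± 2.08, SD, n = 3 each; log2 fold change -0.61, SE 0.14, limma adjusted p = 0.0364). Sdhb, the iron-sulfur subunit that takes the electrons from Sdha, measured 23.4, 16.4 and 30.9 FPKM in WT against 13.1, 10.96 and 17.3 in Homo; the lowest WT library lay below the highest Homo library, and the difference did not pass (log2 fold change -0.71, SE 0.25, limma adjusted p = 0.1201). The anchor Sdhd measured 23.4, 22.1 and 15.5 FPKM in WT against 20.9, 27.9 and 25.1 in Homo (log2 fold change 0.28, SE 0.19, limma adjusted p = 0.427), with overlapping groups. Sdhc, the other anchor, was low in both genotypes (2.09 ± 0.781 and 2.03 ± 0.973, SD, n = 3 each). The level of Sdha relative to Sdhd was 1.18, 1.18 and 1.85 in WT and 0.796, 0.723 and 0.656 in Homo libraries. At an unadjusted p under 0.05, 2 genes were lower (Sdha and Sdhb) and 0 higher. Over all 4859 tested genes, limma had 628 lower and 606 higher at that level. The Sdha call was lost when any 1 of the 6 libraries was left out (limma adjusted p up to 0.128 over all alternatives), with its log2 fold change between -0.70 and -0.56. Removal of the transcript length trend described further on also ended it (-0.52, limma adjusted p = 0.0714).

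Complex III split by subunit, with the sharpest fall of all 40 genes in Uqcrb. Uqcrb encodes a small subunit known as the ubiquinone-binding protein (chromosome 13, 66900617 to 66905378, minus strand). Its values were 25.2, 25.2 and 24.02 FPKM in WT and 9.79, 11.4 and 10.5 in Homo, each group tight and far from the other. The fall was 2.24-fold (24.8 ± 0.6903 against 10.5 ± 0.796, SD, n = 3 each; log2 fold change -1.16, SE 0.14, limma adjusted p = 0.00759). Its exons overlap those of Gm10767 on the other strand, and the kits used do not mark strand, so reads of the pair cannot be told apart. Uqcrc1, a core subunit, measured 11.4, 12.4 and 15.6 FPKM in WT against 7.86, 4.498 and 9.83 in Homo, lower in each Homo library, and did not pass (log2 fold change -0.80, SE 0.27, limma adjusted p = 0.107). The other core subunit, Uqcrc2, measured 8.42, 5.34 and 5.46 FPKM in WT against 6.53, 6.12 and 6.81 in Homo, with overlap. Uqcrfs1, the Rieske iron-sulfur protein, was lowest in the complex at 1.78, 1.15 and 1.47 FPKM in WT against 1.27, 0.2803 and 2.84 in Homo, and its Homo libraries lay on both sides of the WT ones.

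The remaining small subunits of complex III gave no call. Uqcr11, the most abundant, measured 373, 411 and 362 FPKM in WT and 453, 489 and 495 in Homo (log2 fold change 0.33, SE 0.0904, limma adjusted p = 0.0619). Uqcrh, the hinge protein that helps cytochrome c dock, measured 58.03, 67.3 and 73.7 FPKM in WT against 92.9, 85.1 and 86.8 in Homo (log2 fold change 0.41, SE 0.12, limma adjusted p = 0.0743). Uqcr10 measured 31.3, 49.5 and 48.6 FPKM in WT against 52.8, 59.9 and 52.4 in Homo. In these 3 genes every Homo library was above every WT one. Uqcrq, at 60.2, 91.3 and 109.7 FPKM in WT against 75.02, 95.05 and 79.3 in Homo, overlapped. The level of Uqcr11 relative to Uqcrb was 14.8, 16.3 and 15.1 in WT and 46.3, 42.95 and 47.3 in Homo libraries. Over the 8 genes, 0 passed as higher and 1 as lower, and 2 and 2 did at an unadjusted p under 0.05 in limma. After removal of the transcript length trend the log2 fold changes of Uqcr11, Uqcrh and Uqcr10 became -0.12, -0.015 and -0.089, that is, they turned sign, while Uqcrb had -1.54 (limma adjusted p = 0.00333).

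Complex IV was the complex whose calls were rises only: 5 of 13 tested genes were higher in Homo and 0 lower (6 and 0 at an unadjusted p under 0.05 in limma). By sign alone, 10 of the log2 fold changes were above 0 and 3 below. Of all 441 tested genes with a transcript of at most 800 bases, 323 were above 0 and 118 below. At an unadjusted p under 0.05 in limma, 157 of those 441 were higher and 21 lower. Without both libraries richest in haemoglobin, Cox5b was called as lower. Cox7a2l, which encodes a relative of subunit 7a that joins complexes III and IV into supercomplexes, rose most (chromosome 17, 83501918 to 83517330, minus strand). It measured 59.5, 55.9 and 53.6 FPKM in WT and 97.3, 135 and 124 in Homo, so the lowest Homo library was well above the highest WT one. The rise was 2.07-fold (56.3 ± 2.96 against 119 ± 19.2, SD, n = 3 each; log2 fold change 1.05, SE 0.14, limma adjusted p = 0.0080). Its paralog Cox7a2, the subunit 7a form of most tissues, measured 82.5, 102 and 97.8 FPKM in WT against 134, 165 and 141 in Homo, without overlap (log2 fold change 0.63, SE 0.13, limma adjusted p = 0.0221). Of the 5 rises, only that of Cox7a2l still passed after removal of the transcript length trend, and only it passed without WT library 2, WT library 3 or Homo library 2. Cox7a1, the heart and muscle form, was listed at 0 in WT libraries 2 and 3 and at 3.16 FPKM in library 1, and at 0.717, 1.26 and 1.798 FPKM in Homo.

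Subunit 6b, which faces the intermembrane space near the cytochrome c site, was present in both its forms, and both rose. Cox6b1, the general form, measured 601, 609 and 576 FPKM in WT and 779.7, 945 and 912 in Homo (log2 fold change 0.56, SE 0.10, limma adjusted p = 0.0137). Cox6b2, known as the form of testis, measured 65.3, 56.6 and 49.2 FPKM in WT against 89.6, 82.9 and 94.2 in Homo (log2 fold change 0.64, SE 0.13, limma adjusted p = 0.0239). The 2 forms kept a like proportion: Cox6b1 was 9.196, 10.8 and 11.7 times the level of Cox6b2 in WT and 8.698, 11.4 and 9.68 times in Homo libraries. Cox8a, the general form of the small membrane subunit 8, rose 1.52-fold from 433, 421 and 441 to 576, 709.9 and 695 FPKM (log2 fold change 0.61, SE 0.10, limma adjusted p = 0.0123). Its muscle form Cox8b was above 0 in WT library 1 alone, at 3.22 FPKM. Cox8c, described in testis, was at most 1.49 FPKM.

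The other complex IV genes did not pass. Cox5a, a matrix-side subunit and the most abundant gene of the 47, measured 702, 717 and 818 FPKM in WT and 771, 1086 and 955 in Homo, with Homo library 1 inside the WT range (log2 fold change 0.32, SE 0.13, limma adjusted p = 0.174). Cox5b, another matrix-side subunit, measured 35.1, 48.6 and 48 FPKM in WT against 43.04, 22.1 and 34.1 in Homo (log2 fold change -0.43, SE 0.24, limma adjusted p = 0.309). Cox6c, a small membrane subunit, measured 312, 371 and 383 FPKM in WT against 390.5, 441 and 414 in Homo (log2 fold change 0.23, SE 0.11, limma adjusted p = 0.225), with each Homo library above WT. The spread of Homo libraries was wider than their distance from WT in Cox5b. Cox4i1, the general form of subunit 4 that takes part in regulation by ATP, measured 179, 243 and 269 FPKM in WT against 216, 232 and 244 in Homo, with overlap, and its lung form Cox4i2 was listed at 0 in all 6 libraries, as was Cox7b2. Cox6a1 measured 283, 313 and 339.6 FPKM in WT against 341, 304 and 291 in Homo, also with overlap, and its muscle form Cox6a2 was at most 0.228 FPKM. Cox7b and Cox7c stood at 29.6 ± 3.37 and 36.5 ± 11.8 FPKM in WT and 28.3 ± 5.07 and 27.3 ± 6.26 in Homo (SD, n = 3 each). In each of the subunit pairs with a muscle, lung or testis form, the general form was the more abundant in all 6 libraries.

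**Figure D2:**
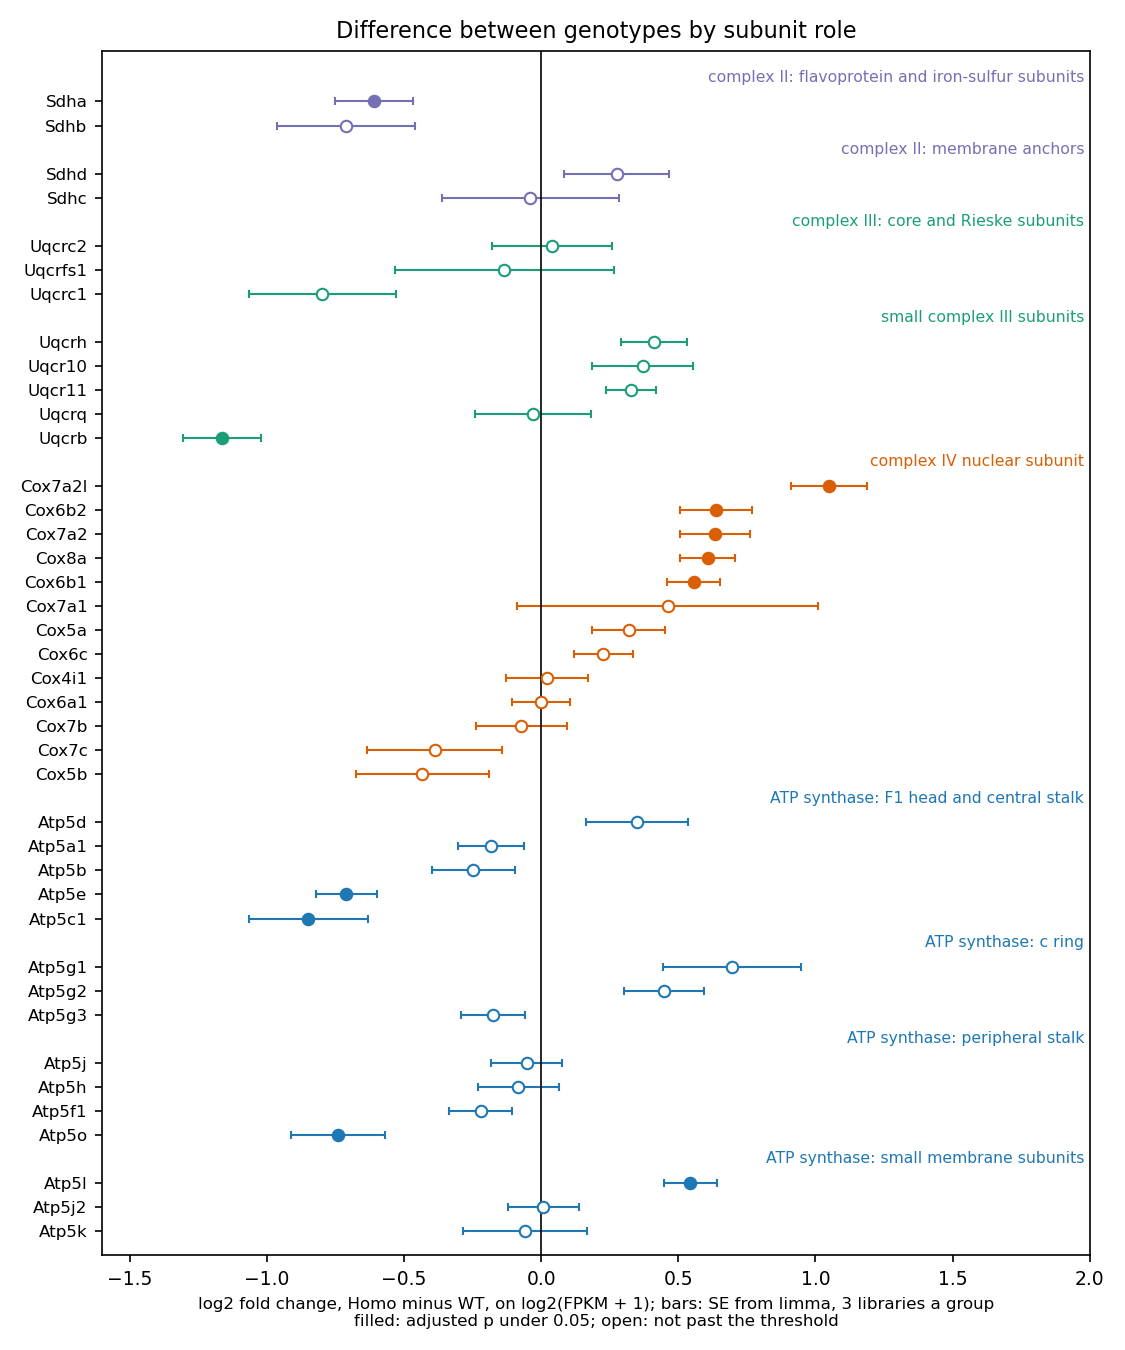
Log2 fold change of each tested gene, Homo minus WT on log2(FPKM + 1), with its limma standard error (3 libraries a group), grouped by the subunit's place in its complex; filled points have an adjusted p under 0.05. Filled points lie right of 0 for complex IV and for Atp5l, and left of 0 for Sdha, Uqcrb, Atp5c1, Atp5e and Atp5o.

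ATP synthase changed in both directions. The falls were in Atp5c1 and Atp5e of the rotating stalk and in Atp5o of the stator. That stator holds the head, and Atp5o was 1 of its 4 tested genes. Of 15 tested genes 3 were lower and 1 was higher. Atp5c1 encodes γ, the shaft of the central stalk (chromosome 2, 10056016 to 10080510, minus strand). It measured 24.8, 32.5 and 36.6 FPKM in WT and 12.98, 16.7 and 21.5 in Homo, and fell 1.8-fold (log2 fold change -0.85, SE 0.22, limma adjusted p = 0.0484). That call was near the threshold, and was lost with a pseudocount of 0.1 (limma adjusted p = 0.0503) and with quantile normalization (0.0557). Atp5e encodes ε, which sits at the foot of that shaft (chromosome 2, 174461072 to 174464105, minus strand). It measured 129, 158 and 139.8 FPKM in WT against 84.5, 82.7 and 92.04 in Homo, without overlap, and fell 1.64-fold (log2 fold change -0.71, SE 0.11, limma adjusted p = 0.0105). The third stalk subunit, δ (Atp5d), measured 17.6, 22.9 and 23.05 FPKM in WT against 25.2, 23.2 and 33.7 in Homo, higher in each Homo library, and did not pass (log2 fold change 0.35, SE 0.18, limma adjusted p = 0.282). The catalytic head itself had no call: β (Atp5b) measured 129, 119 and 122 FPKM in WT against 132, 90.3 and 93.9 in Homo, with Homo library 1 above WT, and α (Atp5a1) measured 60.9, 55.6 and 49.4 FPKM in WT against 49.4, 48.8 and 47.3 in Homo, with a narrow overlap. All 4 calls of the enzyme were lost without WT library 2 or 3 or Homo library 2 or 3.

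In the peripheral stalk, which stops the head from turning, Atp5o fell 1.67-fold. It encodes OSCP, the link between that stalk and the head, and measured 19.3, 19.5 and 24.1 FPKM in WT and 14.3, 10.7 and 11.6 in Homo (log2 fold change -0.74, SE 0.17, limma adjusted p = 0.0354). Exons of Atp5o overlap those of Donson on the same strand and of 2 antisense transcripts, and 1 near-identical copy of it is annotated, so its level is less certain. The other stalk genes had no call, with 61.9 ± 4.35 and 52.96 ± 3.21 FPKM for Atp5f1 (subunit b), 72.2 ± 6.93 and 68.6 ± 11.1 for Atp5h (subunit d), and 124 ± 7.61 and 121 ± 18.1 for Atp5j (factor 6; SD, n = 3 each). Atp5h has 3 near-identical annotated copies, so its level is less certain as well. In the membrane part, Atp5l (subunit g, known for its place where ATP synthase forms dimers) measured 311, 355 and 305 FPKM in WT against 443, 499.6 and 472 in Homo and rose 1.46-fold (log2 fold change 0.54, SE 0.10, limma adjusted p = 0.0153). It too has an antisense partner and 2 near-identical copies. Its neighbours Atp5j2 (subunit f) and Atp5k (subunit e) had 76.9 ± 6.02 and 63.7 ± 9.89 FPKM in WT and 77.7 ± 9.72 and 62.6 ± 18.6 in Homo. The level of Atp5l relative to Atp5e was 2.399, 2.25 and 2.18 in WT and 5.24, 6.04 and 5.13 in Homo libraries.

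The c ring is made of 1 protein encoded by 3 genes that differ in their targeting sequence. Atp5g3 was the most abundant of them in WT, at 39.3, 42.2 and 37.8 FPKM, and measured 34.5, 34.2 and 36.4 in Homo (log2 fold change -0.18, SE 0.12, limma adjusted p = 0.401). Atp5g2 measured 21.7, 25.7 and 26.8 FPKM in WT against 29.9, 36.6 and 35.7 in Homo (log2 fold change 0.45, SE 0.15, limma adjusted p = 0.0988), and Atp5g1, the least abundant, 2.41, 4.301 and 4.93 FPKM in WT against 6.898, 6.97 and 6.26 in Homo (log2 fold change 0.70, SE 0.25, limma adjusted p = 0.124). None of the 3 passed, although the genotypes did not overlap in any of them. The level of Atp5g3 relative to Atp5g2 was 1.81, 1.64 and 1.41 in WT and 1.15, 0.933 and 1.02 in Homo libraries. Atp5g2 has 2 near-identical annotated copies. Atp5s and Atp5sl, which carry the family name but are not subunits of the enzyme, stayed below the filter, at no more than 0.384 and 0.469 FPKM.

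Genes that build or regulate these complexes were read from lists of known factors. Among complex IV factors 2 of 14 tested were higher and 0 lower, with a median log2 fold change of 0.30 (6 higher at an unadjusted p under 0.05 in limma). The 2 were Ndufa4, named for complex I but known as a complex IV subunit, with 652, 642 and 649 FPKM in WT and 913, 1181 and 1018 in Homo (log2 fold change 0.67, SE 0.10, limma adjusted p = 0.0105), and Higd1a, a hypoxia-induced partner of complex IV, with 2.49, 2.54 and 2.499 FPKM in WT against 6.14, 6.71 and 6.61 in Homo (log2 fold change 1.09, SE 0.19, limma adjusted p = 0.0151). Among ATP synthase factors 2 of 6 were higher and 0 lower, with a median of 0.20. Usmg5, a small membrane subunit of the enzyme that the naming rule misses, measured 282, 268 and 284 FPKM in WT against 445, 503 and 514 in Homo (log2 fold change 0.81, SE 0.092, limma adjusted p = 0.00759). Atpif1, the inhibitor of ATP hydrolysis, measured 327, 354 and 340.2 FPKM in WT against 420.1, 471 and 478 in Homo (log2 fold change 0.42, SE 0.091, limma adjusted p = 0.0273). After removal of the transcript length trend Higd1a still passed (1.05), and Ndufa4 (0.23, limma adjusted p = 0.129), Usmg5 (0.28, 0.0658) and Atpif1 (0.015, 0.932) did not. Without Homo library 3 none of the 4 passed, without WT library 2 or 3 only Usmg5 did, without Homo library 2 only Usmg5 and Ndufa4, and Atpif1 also did not without WT library 1 or with quantile normalization (limma adjusted p = 0.113).

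On the side of complexes II and III the factors that passed were lower. Sdhaf4, which helps Sdha find Sdhb, was the call among 2 tested complex II factors, at 10.1, 11.9 and 15.3 FPKM in WT against 5.07, 6.696 and 6.78 in Homo (log2 fold change -0.89, SE 0.21, limma adjusted p = 0.0379). Uqcc1, an early assembly factor of complex III, was the call among 4, at 19.7, 26.3 and 31.7 FPKM in WT against 8.51, 7.704 and 11.5 in Homo (log2 fold change -1.39, SE 0.22, limma adjusted p = 0.0105). Both calls held after removal of the length trend (-1.18 and -1.37) and both were lost without WT library 2 or 3 or Homo library 2 or 3, that of Sdhaf4 also without Homo library 1 and with quantile normalization (limma adjusted p = 0.05298). Cytochrome c1 (Cyc1), the heme subunit of complex III, had 5.78 ± 1.23 and 4.93 ± 0.994 FPKM (SD, n = 3 each) and did not pass. Cytochrome c itself (Cycs) measured 2.803, 3.24 and 2.92 FPKM in WT against 4.79, 6.504 and 4.69 in Homo, apart but not past the threshold (log2 fold change 0.66, SE 0.22, limma adjusted p = 0.101). Of 10 tested genes of pyruvate oxidation and the citric acid cycle, limma called 0 (2 at an unadjusted p under 0.05; median -0.031). Of 15 regulators of mitochondrial biogenesis 4 were tested and 0 called by limma (0 at an unadjusted p under 0.05), and the coactivator genes Ppargc1a, Ppargc1b and Pprc1 were listed at 0 in all libraries. Complex I subunits, tested alongside, had 1 rise and 1 fall among 32, with a median of -0.0027. They were Ndufa2 (175 ± 15.1 and 239 ± 2.54 FPKM, SD, n = 3 each) and Ndufv2 (13.95 ± 1.38 and 7.12 ± 1.48 FPKM), and both calls were lost without any 1 library other than Homo library 1. Ndufa2 also did not pass after removal of the length trend (0.10, limma adjusted p = 0.605). The difference from complex IV was not tested.

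Transcript length moved with the fold change across the whole data set, and most of these genes are short. Among the 441 tested genes with a median annotated transcript of at most 800 bases, 17.0% were higher in Homo and 1.81% lower, with a median log2 fold change of 0.33. The 25 genes of complexes II to IV and ATP synthase in that length range had 5 rises and 3 falls, with a median of 0.021. The falls were Uqcrb, Atp5e and Atp5o, with transcripts of 535, 421 and 684 bases. The rises were Cox6b1, Cox6b2, Cox7a2, Cox8a and Atp5l, at 486, 435, 659, 550.0 and 544 bases. After removal of the length trend within each library these 5 rises no longer passed, with log2 fold changes of 0.14, 0.18, 0.33, 0.24 and 0.17 (limma adjusted p = 0.326, 0.529, 0.129, 0.112 and 0.319). Cox7a2l, at 1102 bases, still rose (0.94, limma adjusted p = 0.0105). The falls were larger after that removal for Uqcrb (-1.54), Atp5e (-1.18, limma adjusted p = 0.00442), Atp5o (-1.03) and Atp5c1 (-0.94).

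**Figure D3:**
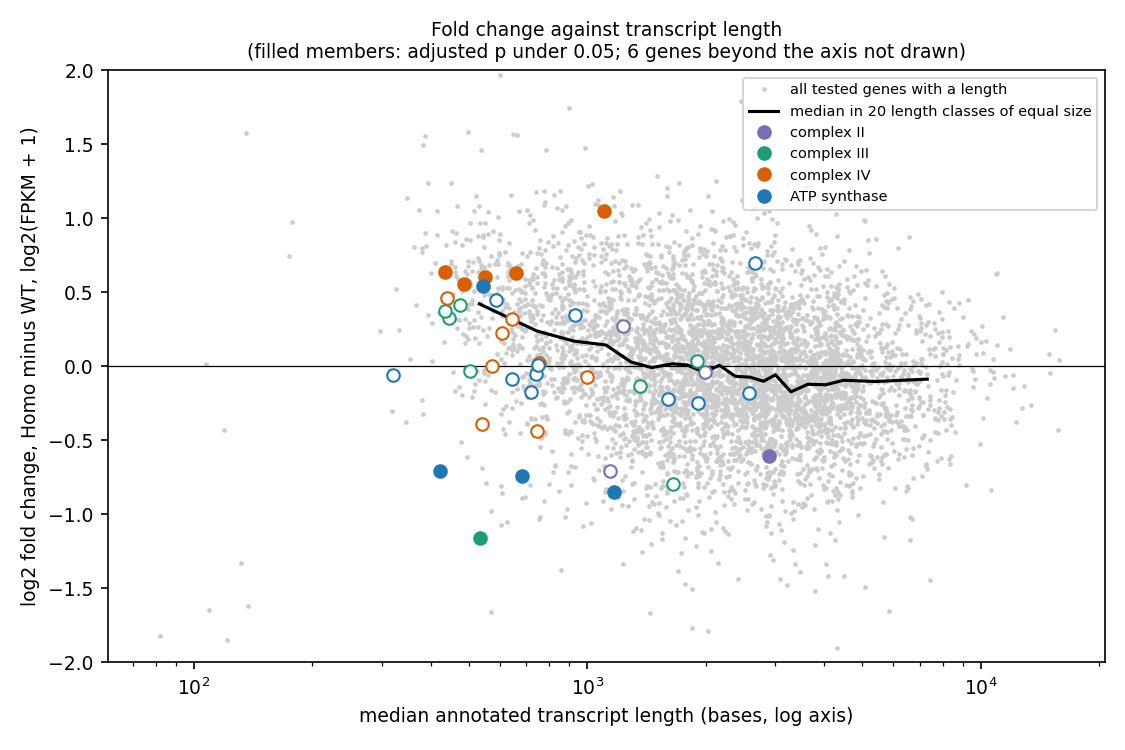
Log2 fold change, Homo minus WT, against median annotated transcript length on a log axis; grey dots are all tested genes with a length, the black line is their median in 20 length classes of equal size, and coloured circles are the genes of each complex (filled: adjusted p under 0.05). The line stands at 0.42 in the shortest class and -0.086 in the longest. Among the genes well below it are Uqcrb, Atp5e, Atp5o, Atp5c1 and Sdha (filled) and Uqcrc1, Sdhb, Cox5b and Cox7c (open).

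Which genes passed also rested on single libraries. The 11 calls became 2 without WT library 2, 2 without WT library 3, 2 without Homo library 2 and 0 without Homo library 3, and 9 and 12 without WT or Homo library 1. Uqcrb and Cox7a2l were called in every one of these fits except that without Homo library 3, in which limma called no gene at all (1002 at an unadjusted p under 0.05). Atp5c1 was also lost without Homo library 1 and Atp5o without WT library 1. With every gene above 0 tested in place of the filtered ones 3 of the genes were called, and without limma's trend of variance on level 0. All 11 kept their sign in all 19 alternatives. Library 1 of each genotype was richest in haemoglobin mRNA, and with both left out 15 genes were called, among them Cox5a (0.41) and Atp5b (-0.38), Cox5b as lower (-0.79) and Uqcr11 as higher (0.35). Sdha was then not called (-0.56, limma adjusted p = 0.0748).

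**Figure D4:**
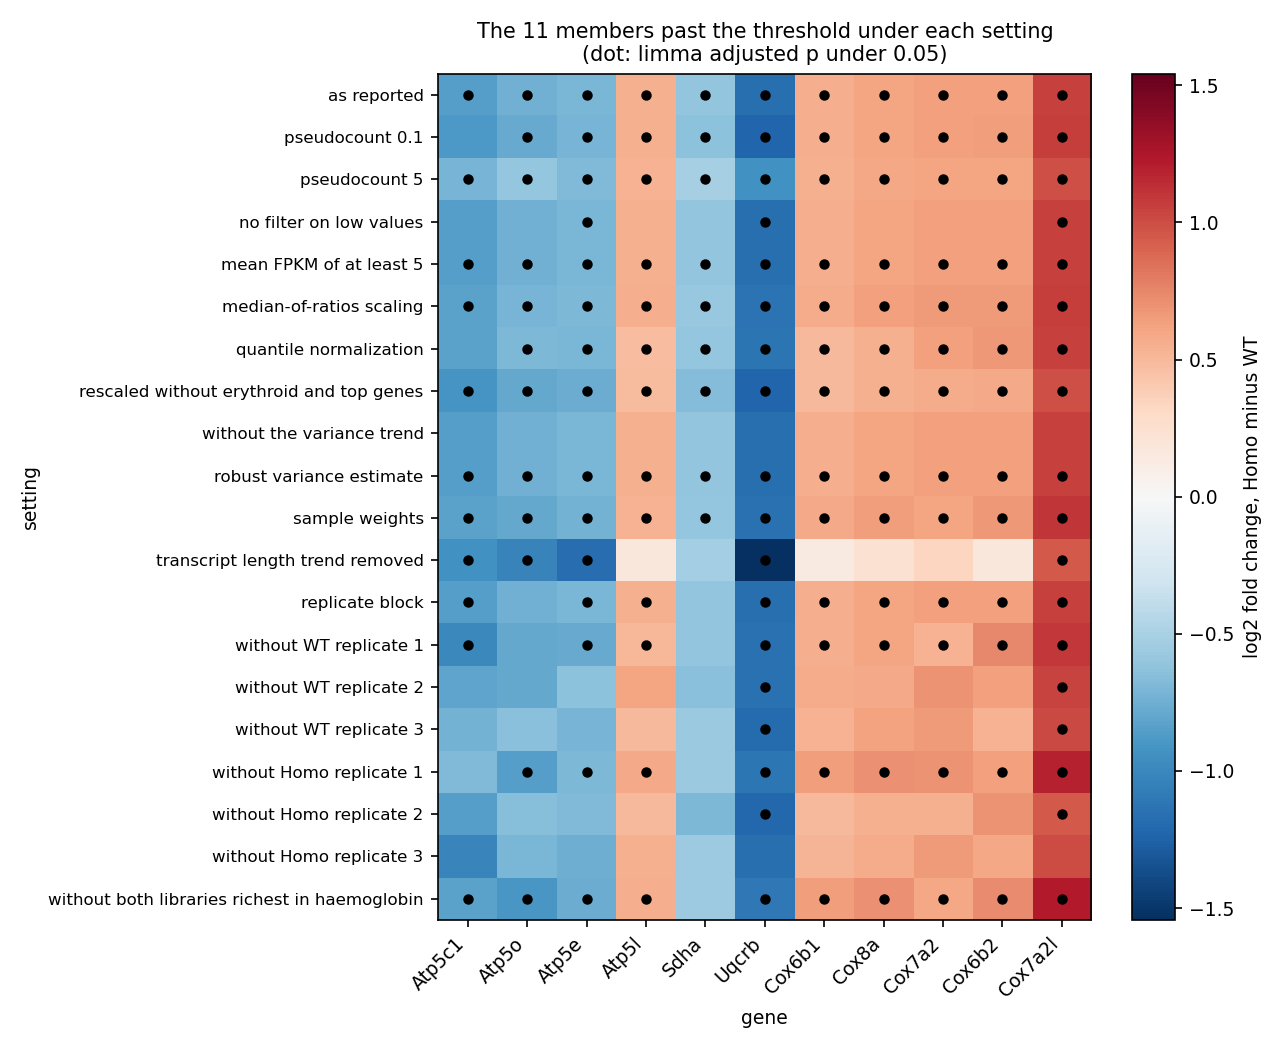
Log2 fold change, Homo minus WT (colour), of the 11 genes past the threshold, by gene and by processing setting; a dot marks a limma adjusted p under 0.05. Colours keep their side of 0 in every row. All dots are missing in the fits without the variance trend and without Homo library 3, and part of them in several other rows.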

How the data were processed

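Per the labels' protocols, TRIzol and miRNeasy Micro columns gave the platelet RNA, SMART-Seq HT the cDNA and Nextera XT the libraries; these kits do not mark strand. The submitters' processing notes name TopHat2 2.1.1, Bowtie2 2.2.8, SAMtools 0.1.18, Cuffdiff 2.2.1 and the build mm10; the annotation was not given in the sources used here. The deposited values are FPKM, 1 table per library, and hold no read counts, so a count test was not used. Low values allowed a relative depth between libraries to be estimated, not a number of reads, and the precision rests on 3 libraries a genotype.

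The 6 tables were joined by symbol. Genes with a mean of at least 1 FPKM were tested on log2(FPKM + 1) with limma 3.58.1 in R 4.3.3 (empirical Bayes with a variance trend, two-sided), with Benjamini-Hochberg adjustment over the 4859 genes and a threshold of 0.05. The script was tested on simulated data. Any 2 libraries shared at most 1 identical value above 0. An exact permutation test of 3 against 3 cannot go below p = 0.1 and was not used. Transcript lengths, overlaps and coordinates came from the GENCODE annotation of GRCm38, a near-identical copy being at least 95% identical over at least 70% of the transcript (BLAST+ 2.17.0); promoters came from RefSeq. The members, the other gene lists and the motifs were chosen with earlier results of these data known. Values in each library are given for the members past the threshold, the most abundant and those nearest the threshold in each complex, and the isoform pairs; other lists are represented by their calls. The 19 alternatives varied the pseudocount, filter, scaling, variance model, sample weights, transcript length trend, replicate block and libraries left out.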

Additional observations from a re-analysis of the deposited data

How the results depend on the processing

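The 11 genes past the threshold kept their direction in all 19 alternatives. The calls moved more: 406 over all genes (11 among the 47) became 107 (3) with no filter on low values, 0 (0) in limma with no variance trend, where 1197 genes had an unadjusted p under 0.05, 325 (5) after removal of the length trend, and 678 (15) without both libraries richest in haemoglobin. Calls in complexes II, III and IV and ATP synthase were 1, 1, 5 and 4. They became 0, 1, 1 and 1 with no filter, 0, 0, 0 and 0 with no variance trend, 0, 1, 1 and 3 once the length trend was taken out and 0, 2, 8 and 5 without both haemoglobin-rich libraries. Complex III had 3 calls with a mean of at least 5 FPKM, 2 with median-of-ratios scaling and 2 with sample weights. Leaving out 1 library at a time gave 0 to 589 calls over all genes and 0 to 12 among the 47, with 0 in every case for complex II, 0 to 2 for III, 0 to 6 for IV and 0 to 4 for ATP synthase. The cause of these moves was not tested.

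Same-numbered libraries deviated from their group means with correlations of 0.16, 0.023 and 0.14, and differently numbered ones with -0.16 to 0.067. The labels state no pairing, so the main fit did not pair the numbers, and whether same-numbered libraries share a batch was not tested. With the replicate block 306 genes were called, 9 among the 47 and 0 in complex II: Sdha (limma adjusted p = 0.0727) and Atp5o (0.0582) did not pass, and no other of the 11 was lost. Outside the 47, Ndufa2 (limma adjusted p = 0.0512) and Ndufv2 (0.0552) did not pass with the block. Every library correlated best with its own number except Homo library 2, which did so with WT library 3 (0.067).

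Direction turned only in 15 genes that had not passed. Their log2 fold changes became Cox4i1 -0.0047, Cox6a1 -0.091 with quantile normalization; Atp5j2 -0.0496, Cox4i1 -0.038, Cox6a1 -0.059, Uqcrc2 -0.012 with rescaling that left out erythroid and top genes; Cox4i1 -0.019, Cox6a1 -0.046, Sdhc 0.068 with sample weights; Atp5j2 -0.24, Cox4i1 -0.23, Cox6a1 -0.36, Cox6c -0.11, Uqcr10 -0.089, Uqcr11 -0.12, Uqcrh -0.015 after removal of the length trend; and Atp5j 0.052, Atp5k 0.066, Cox4i1 -0.10, Cox6a1 -0.13, Sdhc 0.10 without both haemoglobin-rich libraries, where Cyc1, outside the 47, also turned (0.084). With 1 library left out at a time the ranges were Atp5h -0.19 to 0.047, Atp5j -0.15 to 0.0701, Atp5j2 -0.057 to 0.12, Atp5k -0.25 to 0.19, Cox4i1 -0.15 to 0.14, Cox6a1 -0.067 to 0.063, Cox7b -0.20 to 0.047, Sdhc -0.29 to 0.14, Uqcrc2 -0.0603 to 0.23, Uqcrfs1 -0.52 to 0.27, Uqcrq -0.27 to 0.16.

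The number of reads behind an FPKM value is not known here, and the values come without an estimate of their counting error. The alternatives for genes outside the 47 were added after seeing the data.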
